A study of Homo sapiens with 6 samples.

Results

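The genes of the proteasome were followed in CAL27 cells, an established line of human tongue squamous carcinoma, that overexpressed CNTNAP2-203 or carried a control vector. They were taken as every row of the count table whose symbol is PSMA, PSMB, PSMC or PSMD followed by digits and nothing more, which gave 39 of 60564 listed genes. Of these, 37 had enough reads to be tested, with at least 1303 counts in every library, and the other 2, PSMA8 and PSMB11, had almost none. Of the 18786 genes tested in all, 37 were therefore proteasome subunit genes.

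CNTNAP2-203 OE cells had been infected with a lentivirus holding CNTNAP2-203, a transcript of the adhesion protein gene CNTNAP2, and control cells with a lentivirus holding the control vector, for which the sample descriptions name EGFP. Cells of both groups were grown in serum-containing medium and selected with 5 μg/ml puromycin for 2 weeks, so the controls carry a lentivirus and a resistance selection too. Each group held 3 libraries of total RNA depleted of ribosomal RNA. The labels name neither the promoter of the constructs nor whether replicates stem from separate infections or cultures. The p-values given here therefore reflect the spread among 3 libraries a group, which can be purely technical. CNTNAP2 had 140022, 156055 and 119280 counts in the CNTNAP2-203 OE libraries, against 0, 3 and 4 in the controls.

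Library totals were 36843190 to 42412703 counts in CNTNAP2-203 OE and 38769375 to 41754789 in control. All 9 listed epithelial markers were detected and tested, with log2 fold changes of -0.60 (TP63) to 0.47 (KRT18), 6 of them positive. The most abundant were KRT5 at 6500 ± 557 CPM in CNTNAP2-203 OE and 5126 ± 496 CPM in control (counts per 1e6 after TMM scaling, the trimmed-mean scaling of libraries; SD, n = 3 each) and KRT14, at 3923 ± 899 CPM in CNTNAP2-203 OE and 4272 ± 366 CPM in control. Of the 18 listed markers of fibroblasts, leukocytes and endothelium, 9 had too few reads to be tested, and no marker of any list passed the test. The markers summed to 40.0 to 42.9 CPM in CNTNAP2-203 OE and 40.9 to 45.9 CPM in control for fibroblasts. The leukocyte markers, whose defining PTPRC was near 0, summed to 54.8 to 62.3 CPM in CNTNAP2-203 OE and 50.7 to 69.8 CPM in control. The endothelial markers summed to 7.75 to 11.5 CPM in CNTNAP2-203 OE and 6.11 to 9.58 CPM in control. Most of this came from CDH5 (means of 7.94 CPM in CNTNAP2-203 OE and 6.04 CPM in control), while KDR had 0 counts in every library. CNTNAP2-203 OE replicate 3 stood apart from the other libraries. It had the fewest genes with a count, 25336, against 26418 to 27002 elsewhere, and a trend of its values with gene length and GC content that had an SD of 0.145 on the log2 scale, against 0.04 to 0.08 in the other 5 libraries. Where leaving it out changed a call or a direction, or moved the described log2 fold change of a PSMA to PSMD gene, or the median of a subunit group, by over 1.5 times, the value without it is given too.

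The proteasome degrades proteins that carry ubiquitin chains. Its barrel-shaped core is built from rings of alpha subunits (PSMA genes), which form the gate, and rings of beta subunits (PSMB genes), which hold the proteolytic sites. A regulatory particle caps the core: in its base, a ring of ATPases (PSMC genes) and large scaffold subunits (some PSMD genes) unfold and feed in the substrate, and in its lid (other PSMD genes) the ubiquitin chain is cut off. In immune cells and in cells exposed to interferon gamma, PSMB8, PSMB9 and PSMB10 replace the catalytic subunits PSMB5, PSMB6 and PSMB7, which gives the immunoproteasome that supplies peptides to MHC class I. When proteasome activity falls short, the transcription factor NRF1, encoded by NFE2L1, raises subunit genes through antioxidant response elements in their promoters.

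Promoters of 34 of the 39 genes were matched by symbol in RefSeq (GRCh38.p14), as 41 windows because some genes have several annotated starts, and PSMA7, PSMB1, PSMB6, PSMB7 and PSMD4 were not matched. Each window ran from 250 bases before to 50 after a start. The antioxidant response element core TGACNNNGC, searched on both strands, was in 10 of the 41 windows (24.4%), against 13.3% of all 35116 windows of this length. The core of the interferon-stimulated response element, GAAA, 2 bases of any kind and GAAA again, was in 4 of 41 (9.76%), against 3.57% of all windows, and its holders were PSMA4, PSMB4, PSMB8 and PSMB10. CCAAT was in 18 windows (43.9%, against 34.6% of all), and the E2F site TTTGGCGC, searched because the title of the series names E2F1, in 2 (4.88%, against 0.652%), those of PSMD5 and PSMD9. The motifs were chosen with the results known, their matches can overlap one another, and a match is a description of letters, not a bound site.

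The sequences below are shown because they hold the 2 kinds of element known from proteasome induction, in genes whose values are given further on. They are a selection. TGACNNNGC was also in PSMA4, PSMB9, PSMC4, PSMC5, PSMD5, PSMD9 and PSMD12, with log2 fold changes of 0.06 (PSMD5) to 0.37 (PSMC4). The interferon element was also in PSMA4 (0.09) and PSMB4 (0.38, or 0.20 without CNTNAP2-203 OE replicate 3). The first pair carries TGACNNNGC in capitals, beginning 37 bases before the start in PSMD3 (chr17:39980557-39980816, plus strand) and at 104 bases before it in PSMB3 (chr17:38752491-38752750, plus strand). In PSMD1 the element begins 39 bases after the start, so only 30 bases around it are given (chr2:231056887-231056916, plus strand). The last pair carries this interferon element or its reverse complement in capitals. It begins 4 bases before one of 2 annotated starts of PSMB8, which it spans (chr6:32844038-32844297, minus strand), and 21 bases before that of PSMB10 (chr16:67936841-67937100, minus strand).
PSMD3: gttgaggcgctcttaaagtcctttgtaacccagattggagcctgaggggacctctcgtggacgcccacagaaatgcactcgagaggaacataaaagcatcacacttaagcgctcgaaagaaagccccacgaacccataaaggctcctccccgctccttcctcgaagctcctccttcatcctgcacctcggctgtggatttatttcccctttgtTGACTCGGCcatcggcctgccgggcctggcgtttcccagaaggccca
PSMB3: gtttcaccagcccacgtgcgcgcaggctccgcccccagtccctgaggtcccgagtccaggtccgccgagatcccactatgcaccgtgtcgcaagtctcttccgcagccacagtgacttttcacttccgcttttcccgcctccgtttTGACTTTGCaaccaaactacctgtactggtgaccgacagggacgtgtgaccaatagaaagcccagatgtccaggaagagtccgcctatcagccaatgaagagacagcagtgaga
PSMD1: ggcggcctgaggaggcgacTGACTGAGCag
PSMB8: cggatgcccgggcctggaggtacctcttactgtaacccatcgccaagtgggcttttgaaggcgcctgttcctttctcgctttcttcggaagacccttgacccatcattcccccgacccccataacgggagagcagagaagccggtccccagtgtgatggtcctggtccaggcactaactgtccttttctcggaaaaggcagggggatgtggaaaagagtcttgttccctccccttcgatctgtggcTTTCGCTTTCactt
PSMB10: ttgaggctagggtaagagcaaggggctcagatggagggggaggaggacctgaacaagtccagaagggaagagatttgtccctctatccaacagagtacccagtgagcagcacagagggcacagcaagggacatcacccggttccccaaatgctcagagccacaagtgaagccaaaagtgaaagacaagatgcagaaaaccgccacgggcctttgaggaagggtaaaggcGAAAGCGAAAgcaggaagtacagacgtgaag

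All 37 tested proteasome genes had a higher fitted level in CNTNAP2-203 OE than in control, but the differences were small and 1 passed the test over all genes. The log2 fold changes were 0.06 to 0.58, with a median of 0.37 (1.29-fold), against a median of -0.00381 over all 18786 tested genes, of which 49.6% had a positive value. PSMD1 was the 1 member that rose at an adjusted p under 0.05 (edgeR quasi-likelihood test, Benjamini-Hochberg over all tested genes), and none fell. Of all tested genes, 0.798% were called higher and 0.596% lower, so 1 in 37 is too few to read as a share. At an unadjusted p under 0.05, 25 of the 37 were higher and none lower, against 9.41% of all tested genes higher and 7.84% lower. DESeq2 called 8 members higher (PSMB2, PSMB3, PSMC2, PSMC3, PSMD1, PSMD2, PSMD3 and PSMD13), against 4.4% of the 14763 genes it gave an adjusted p. In 24 of the 37, the 3 CNTNAP2-203 OE libraries all lay above the 3 controls, which was so for 13.7% of all tested genes; all 3 lay below the controls in none of the members and in 12.8% of all tested genes. Proteasome transcripts together took 0.731%, 0.725% and 0.823% of all counts in CNTNAP2-203 OE replicates 1, 2 and 3, against 0.632%, 0.594% and 0.608% in control replicates 1, 2 and 3. In bulk RNA, more cells with a high level and more RNA in each cell cannot be told apart.

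**Figure D1:**
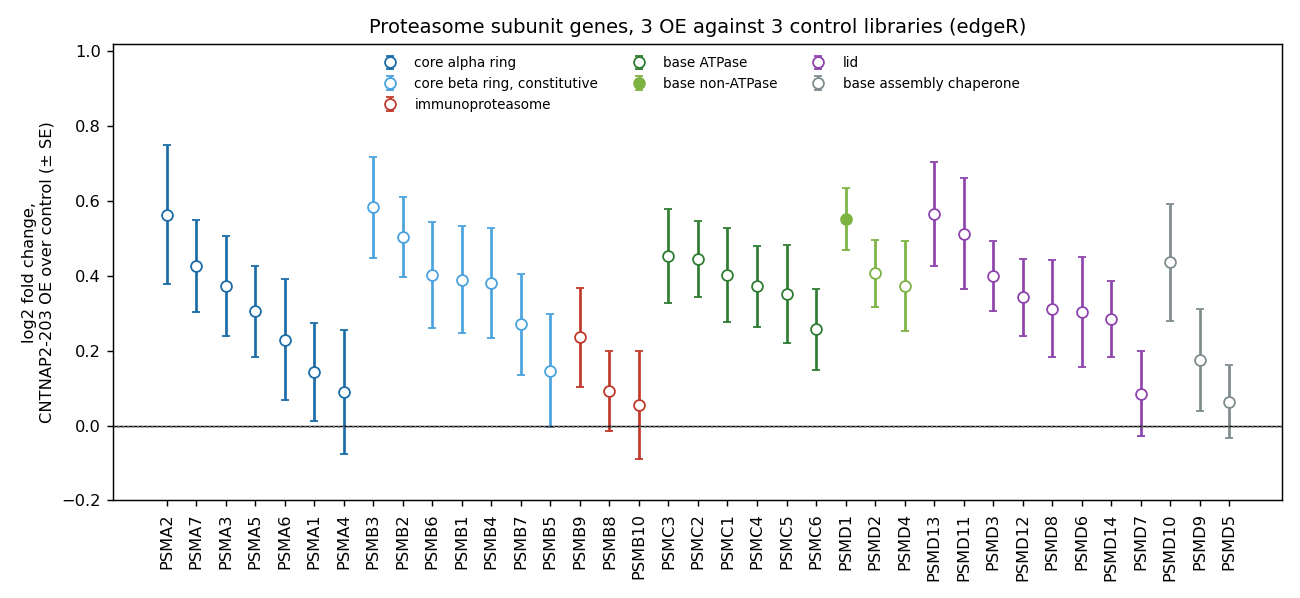
Log2 fold change of each tested proteasome gene, CNTNAP2-203 OE over control, with its standard error, ordered within subunit groups; filled symbols passed the test and the dotted line is the median of all tested genes. All 37 values lie above 0, between 0.06 and 0.58, and only that of PSMD1 is filled.

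**Figure D2:**
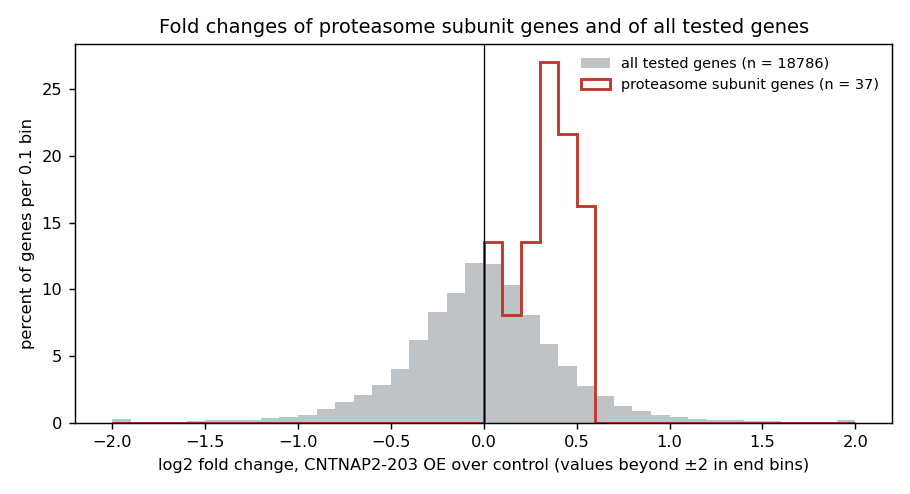
Share of genes in each 0.1-wide bin of log2 fold change, CNTNAP2-203 OE over control, for the 37 proteasome genes (line) and all 18786 tested genes (grey); values beyond the axis are in the end bins. The proteasome genes centre at 0.37 and the tested genes near 0.

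CNTNAP2-203 OE replicate 3 had the highest value of its group for 31 of the 37 genes, against 41.1% of all tested genes, and the lowest for the other 6 (39.2% of all tested genes), PSMB5, PSMD1, PSMD2, PSMD5, PSMD7 and PSMD11. The median member, relative to its control mean, stood at 0.26, 0.17 and 0.54 on the log2 CPM scale in CNTNAP2-203 OE replicates 1, 2 and 3, against 0.05, -0.05 and -0.01 in control replicates 1, 2 and 3. All 3 CNTNAP2-203 OE libraries were thus above all controls, with replicate 3 the highest. Without replicate 3, 35 of the 37 log2 fold changes were positive (48.7% of 19470 tested genes), 25 had both remaining libraries above all controls (18.5% of tested genes), and the median was 0.23. That fit called 5 members higher, PSMB2, PSMC2, PSMD1, PSMD2 and PSMD13, against 1.59% of its tested genes. The library's difference from its group fell with gene length over 15287 tested genes (Spearman correlation -0.39) and less over the 37 members (-0.15). With trends in length and GC content removed from every library, 36 of 37 were positive, the median was 0.31, and 4 members were called (PSMB3, PSMD1, PSMD2 and PSMD3), against 2.14% of tested genes higher.

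**Figure D3:**
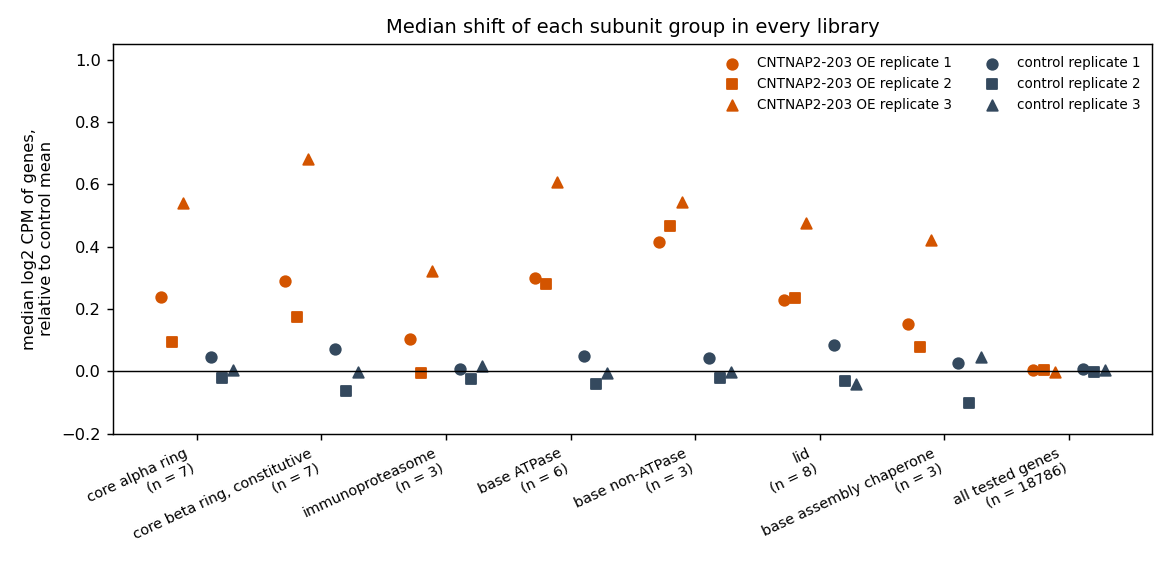
Median log2 CPM of each subunit group in every library, relative to the mean of the controls; CNTNAP2-203 OE libraries are drawn left of controls and the symbol gives the replicate. CNTNAP2-203 OE replicate 3 is the highest library in all 7 subunit groups, and the median of all tested genes lies at 0 in each library.

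The clearest change was in the scaffold of the base. PSMD1, a large repeat protein on which other subunits and the deubiquitinase UCHL5 (through ADRM1) are anchored, was at 209, 212 and 208 CPM in CNTNAP2-203 OE, against 145, 141 and 143 CPM in control. The libraries of each group were nearly equal and the groups lay far apart. The mean was 209.6 ± 1.94 CPM in CNTNAP2-203 OE and 143 ± 2.30 CPM in control (SD, n = 3 each), a log2 fold change of 0.55 (SE 0.0831, edgeR adjusted p = 0.0304). The gene lies at 2:231056864-231172827 on the plus strand (GENCODE 29, GRCh38), and HTR2B, which overlaps its exons on the opposite strand, had 6 to 14 counts per library. Leaving out CNTNAP2-203 OE replicate 3 kept this call (edgeR adjusted p = 0.0123). Leaving out any other single library ended it, at adjusted p between 0.0761 and 0.188, while the log2 fold change stayed at 0.54 to 0.56.

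PSMD2, the second scaffold of the base, which docks ubiquitin-like domains of shuttle proteins and USP14, was at 456, 473 and 433 CPM in CNTNAP2-203 OE, against 352, 341 and 334 CPM in control. Its groups did not overlap either, with a log2 fold change of 0.41 that missed the threshold (SE 0.0886, adjusted p = 0.0767). Without CNTNAP2-203 OE replicate 3, PSMD2 passed it (edgeR adjusted p = 0.0238). PSMD4, a ubiquitin receptor between base and lid, was at 219 ± 28 CPM in CNTNAP2-203 OE and 169 ± 13.3 CPM in control.

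None of the 6 ATPases of the base passed the test, and their values were close to one another. Their log2 fold changes were 0.26 (PSMC6) to 0.45 (PSMC3), with a median of 0.39. All 6 were higher at an unadjusted p under 0.05, against 9.41% of all tested genes. In all 6 the CNTNAP2-203 OE libraries lay above the controls, against 13.7% of all tested genes. PSMC2 was at 229, 232 and 272 CPM in CNTNAP2-203 OE, against 184, 179.9 and 174 CPM in control (adjusted p = 0.0853). Without CNTNAP2-203 OE replicate 3, PSMC2 passed the test (log2 fold change 0.36, edgeR adjusted p = 0.0412). PSMC3 was at 249.8, 259.7 and 321 CPM in CNTNAP2-203 OE, against 219, 186 and 201 CPM in control (adjusted p = 0.13). For each, replicate 3 of CNTNAP2-203 OE was the highest library, as it was for the other 4 ATPases. PSMC1P1, a pseudogene of PSMC1, was listed with 12545 counts over the 6 libraries, so the split of reads between them is uncertain.

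In the lid, the 8 genes ran from 0.09 (PSMD7) to 0.57 (PSMD13), with a median of 0.33, and none passed the test. PSMD3, a structural lid subunit, was at 233, 242 and 250.9 CPM in CNTNAP2-203 OE, against 196, 173 and 181 CPM in control (adjusted p = 0.089). PSMD13, another, was at 154, 156 and 210.5 CPM in CNTNAP2-203 OE, against 125, 113 and 114 CPM in control, with an adjusted p of 0.1 (edgeR adjusted p = 0.0461 without CNTNAP2-203 OE replicate 3). Both sets of libraries were separate by group, with the spread of PSMD13 coming mostly from replicate 3 of CNTNAP2-203 OE. PSMD14, the metalloprotease that removes ubiquitin chains before degradation, was at 193 ± 18.6 CPM in CNTNAP2-203 OE and 158 ± 4.72 CPM in control (log2 fold change 0.28). PSMD7, its inactive partner, overlapped between groups at 161 to 191 CPM in CNTNAP2-203 OE and 152 to 185 CPM in control, with a log2 fold change of 0.09, or 0.15 without CNTNAP2-203 OE replicate 3. PSMD11, whose level is known to limit assembly of the full complex in human stem cells, was at 225, 284 and 203 CPM in CNTNAP2-203 OE, against 174, 179.9 and 145 CPM in control (log2 fold change 0.51, adjusted p = 0.143). Its highest library was replicate 2.

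The 7 genes of the alpha ring ran from 0.09 (PSMA4) to 0.56 (PSMA2), with a median of 0.30, and none passed the test. Without CNTNAP2-203 OE replicate 3, the median of the ring was 0.18. PSMA7 was at 387, 382 and 496 CPM in CNTNAP2-203 OE, against 324, 302 and 315 CPM in control, with no overlap (log2 fold change 0.43, adjusted p = 0.143). PSMA2 was at 302, 290.1 and 352 CPM in CNTNAP2-203 OE, against 239, 153 and 247 CPM in control (adjusted p = 0.182). Control replicate 2 was far below the other controls. In that library, AC010132.3, a protein-coding gene that overlaps exons of PSMA2 on the same strand, was listed with 3960 counts, against 0 to 20 in the other 5 libraries. With the counts of both genes added, PSMA2 was at 302, 290.5 and 352 CPM in CNTNAP2-203 OE, against 239, 253 and 247 CPM in control, and its log2 fold change was 0.35 in place of 0.56. Control replicate 2 then lay with the other controls, and the adjusted p was 0.148. PSMA1, PSMA4 and PSMA6 overlapped between groups, at log2 fold changes of 0.14, 0.09 and 0.23. Without replicate 3 of CNTNAP2-203 OE, PSMA1 was at 0.05, PSMA4 at -0.13 and PSMA6 at 0.05.

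Of the constitutive beta ring, 5 of 7 genes had all CNTNAP2-203 OE libraries above all controls, against 13.7% of all tested genes, and none passed the test. The log2 fold changes were 0.15 (PSMB5) to 0.58 (PSMB3), with a median of 0.39, which was 0.23 without CNTNAP2-203 OE replicate 3. PSMB2, a structural ring subunit, was at 432, 398 and 491 CPM in CNTNAP2-203 OE, against 323, 299 and 309.8 CPM in control (log2 fold change 0.50, SE 0.107, adjusted p = 0.0713). Without CNTNAP2-203 OE replicate 3, PSMB2 passed the test (0.41, edgeR adjusted p = 0.0361). PSMB3, also structural, was at 204, 199 and 249 CPM in CNTNAP2-203 OE, against 167, 129.6 and 139 CPM in control (0.58, SE 0.136, adjusted p = 0.0883). In both genes the lowest CNTNAP2-203 OE library was above the highest control.

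The catalytic genes of this ring were less uniform. PSMB5, which carries the chymotrypsin-like site and is the main target of bortezomib, was at 135, 127 and 91.5 CPM in CNTNAP2-203 OE, against 112, 99.3 and 108 CPM in control. It had opposite positions in different libraries, since replicates 1 and 2 of CNTNAP2-203 OE were above all controls and replicate 3 was below them. Its log2 fold change was 0.15 with all libraries (adjusted p = 0.655) and 0.30 without replicate 3 (adjusted p = 0.118). PSMB6, with the caspase-like site, was at 154, 141 and 203 CPM in CNTNAP2-203 OE, against 126, 123 and 128 CPM in control, with no overlap (log2 fold change 0.40, adjusted p = 0.203). Without replicate 3 its log2 fold change was 0.23 (adjusted p = 0.163). PSMB7, with the trypsin-like site, was at 389, 381 and 509 CPM in CNTNAP2-203 OE, against 382, 335 and 343 CPM in control, where control replicate 1 reached into the range of CNTNAP2-203 OE (0.27, adjusted p = 0.352). Without replicate 3, PSMB7 was at 0.12 (adjusted p = 0.503).

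The immunoproteasome had the lowest median log2 fold change of the 7 subunit groups, 0.09. PSMB8 was at 183, 159.7 and 202 CPM in CNTNAP2-203 OE, against 171, 167 and 172 CPM in control (log2 fold change 0.09, SE 0.107, adjusted p = 0.699). PSMB9 was at 124, 114 and 158 CPM in CNTNAP2-203 OE, against 114, 107 and 115 CPM in control (0.24, SE 0.132, adjusted p = 0.401). PSMB10 was at 51.7, 58.9 and 74.0 CPM in CNTNAP2-203 OE, against 54.7, 63.1 and 59.7 CPM in control (0.06, SE 0.144, adjusted p = 0.874). The groups overlapped in all 3 genes, none had an unadjusted p under 0.05, and the highest library was each time replicate 3 of CNTNAP2-203 OE. The median of 0.09 was 0.01 without that library, against 0.38 and 0.22 over the 14 constitutive core genes. Without that library, PSMB8 was at 0.01, PSMB9 at 0.08 and PSMB10 at -0.10 on the log2 scale. PSMB10 was also below 0, at -0.03, with length and GC trends removed. A test of the difference between the 3 genes and the constitutive ones was not made, since it would be a test of a score over chosen members. PSMB8 and PSMB9 overlap each other's exons on opposite strands at 6:32840717-32844703 and 6:32844136-32859585, so reads in that stretch cannot be assigned by strand with this kit.

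**Figure D4:**
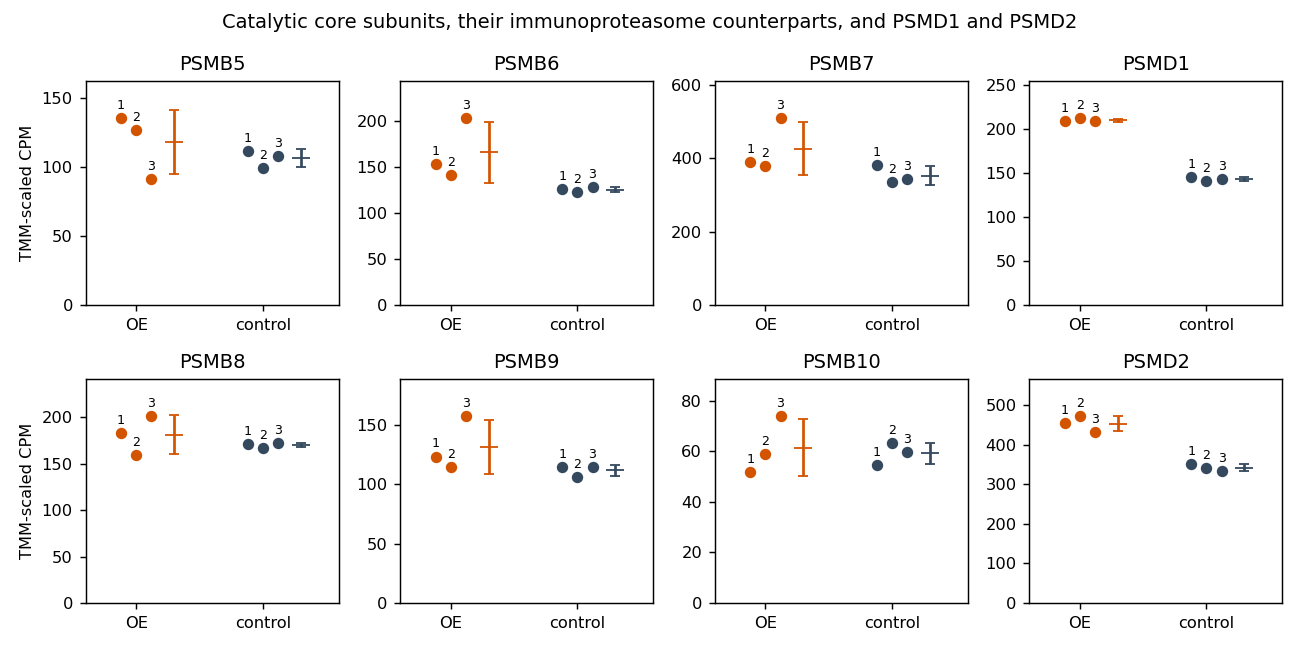
TMM-scaled CPM of the constitutive catalytic genes (PSMB5, PSMB6, PSMB7), their immunoproteasome counterparts (PSMB8, PSMB9, PSMB10) and 2 base scaffolds in every library, with the replicate number at each point and the mean with its SD beside; OE is CNTNAP2-203 OE. The groups are apart in PSMB6, PSMD1 and PSMD2 and overlap in the other 5 genes.

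Set against its constitutive counterpart in the same library, each immunoproteasome gene gave a ratio of length-scaled values (FPKM, from the authors' deposited log2 values). PSMB9 over PSMB6 was 0.348, 0.350 and 0.336 in CNTNAP2-203 OE, against 0.394, 0.376 and 0.387 in control. All 3 CNTNAP2-203 OE libraries were below all controls, at a mean of 0.345 ± 0.00770 in CNTNAP2-203 OE and 0.386 ± 0.00904 in control (SD, n = 3 each), and replicate 3 did not stand apart. PSMB10 over PSMB7 was 0.146, 0.170 and 0.160 in CNTNAP2-203 OE, against 0.157, 0.207 and 0.191 in control, so the groups overlapped. PSMB8 over PSMB5 was 0.604, 0.562 and 0.982 in CNTNAP2-203 OE, against 0.683, 0.752 and 0.709 in control. Replicates 1 and 2 of CNTNAP2-203 OE were below the controls and replicate 3 above them; in that library PSMB5 was low and PSMB8 high. The mean ratio in CNTNAP2-203 OE relative to control was 1.00 for this pair with all libraries and 0.816 without replicate 3, 0.894 for PSMB9 over PSMB6 and 0.856 for PSMB10 over PSMB7. No p is given for these ratios, which are built from chosen members.

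**Figure D5:**
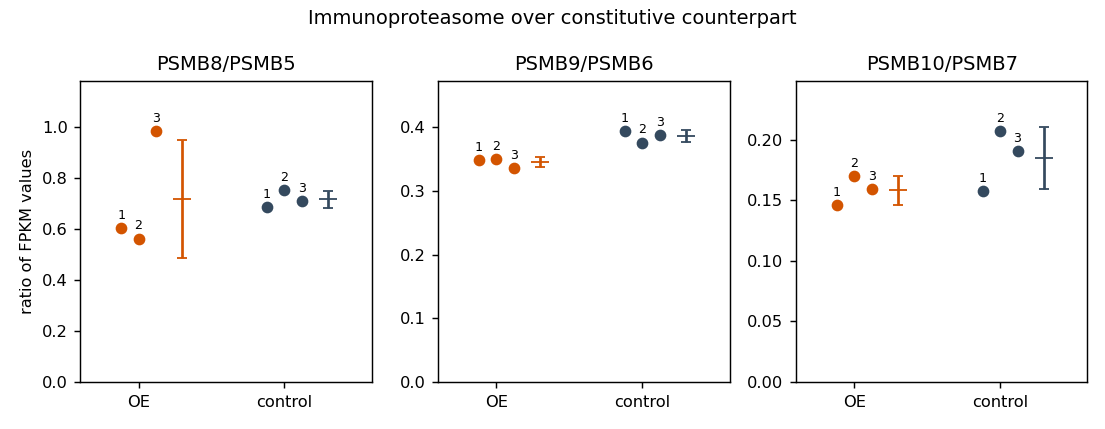
Ratio of the FPKM of each immunoproteasome gene to that of its constitutive counterpart in every library, with the replicate number at each point and the mean with its SD beside; OE is CNTNAP2-203 OE. The groups are apart for PSMB9/PSMB6, and CNTNAP2-203 OE replicate 3 lies at 0.982 for PSMB8/PSMB5.

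The 3 genes of base assembly chaperones, which help to build the ATPase ring and are not part of the finished particle, did not pass the test. PSMD10, known as the oncoprotein gankyrin, was at 55.4, 41.0 and 61.0 CPM in CNTNAP2-203 OE, against 39.4, 35.2 and 41.7 CPM in control (log2 fold change 0.44, adjusted p = 0.214). PSMD9 was at 37.7, 34.8 and 47.6 CPM in CNTNAP2-203 OE, against 36.8, 33.0 and 36.6 CPM in control (0.18, adjusted p = 0.549). PSMD5 was at 115 ± 7.61 CPM in CNTNAP2-203 OE and 109.8 ± 6.06 CPM in control (log2 fold change 0.06). The groups overlapped in all 3 genes, and their median log2 fold change was 0.18. Without CNTNAP2-203 OE replicate 3 the median was 0.11, with PSMD9 at 0.03 and PSMD5 at 0.11. The tissue-restricted core genes were close to undetected: PSMA8, of the testis, had 0 counts in every library, which allows up to 3 per library for counting error alone, and PSMB11, of the thymic cortex, had 4, 0 and 0 in CNTNAP2-203 OE, against 0, 2 and 0 in control.

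On the scale of FPKM, the levels of the tested genes in control ranged from 3.34 ± 0.186 for PSMD9 to 165 ± 11.4 for PSMB7 (SD, n = 3). In CNTNAP2-203 OE the lowest was again PSMD9 at 3.65 ± 0.481, and the highest were PSMA7 at 194 ± 22.8 and PSMB7 at 192 ± 25.4, which did not differ beyond their spread. The gene lengths implied by counts and FPKM ran from 1422 bases for PSMB3 to 11166 for PSMD6, so genes listed as long had low FPKM at like counts, and levels per length depend on which exons the authors summed.

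Other genes of the pathway, from lists chosen with earlier results of these data known, gave no calls in either direction. Both remaining subunits of the particle had log2 fold changes within the range of the members, and both were highest in CNTNAP2-203 OE replicate 3. The ubiquitin receptor ADRM1 was at 0.34 (edgeR adjusted p = 0.243). Its libraries were at 295, 309 and 388 CPM in CNTNAP2-203 OE, against 289, 245 and 250 CPM in control. SEM1, of the lid, was at 0.49 (edgeR adjusted p = 0.222). Its libraries were at 123, 114 and 184 CPM in CNTNAP2-203 OE, against 108, 95.2 and 97.3 CPM in control. Of 5 core assembly chaperones, all had a positive log2 fold change, against 49.6% of all tested genes, and none passed. Their median was 0.25, and the smallest p were those of POMP (0.49, edgeR adjusted p = 0.187), PSMG1 (0.38) and PSMG2 (0.25). POMP, which matures the core, was at 172, 160 and 247 CPM in CNTNAP2-203 OE, against 138, 139 and 134 CPM in control. Its mean was 193 ± 47.2 CPM in CNTNAP2-203 OE and 137 ± 2.50 CPM in control, and replicate 3 of CNTNAP2-203 OE was the highest library. Fold changes without that library are not given for genes outside PSMA to PSMD.

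Of the 5 activators and inhibitors of the core, none passed the test and their values lay on both sides of 0. The interferon-induced PSME1 and PSME2 were at 0.08 and 0.06, the nuclear PSME3 at 0.14 with a wide SE of 0.695, PSME4 at -0.16, and the inhibitor PSMF1 at -0.20, and none of the 5 had an unadjusted p under 0.05. Of 11 cofactors found on the proteasome, none passed and the median was -0.01; TMUB1 (0.49, adjusted p = 0.119), TXNL1 (0.41) and UCHL5 (0.22) had the smallest p. The deubiquitinase USP14 was at 0.15.

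Of 11 regulators of proteasome gene expression, none passed and 3 had a positive value, against 49.6% of all tested genes. NFE2L1, the gene of NRF1, was at 411 ± 124 CPM in CNTNAP2-203 OE and 493 ± 32 CPM in control (log2 fold change -0.26, adjusted p = 0.579). Its libraries were at 269, 496 and 468 CPM in CNTNAP2-203 OE, against 465, 528 and 487 CPM in control. Only CNTNAP2-203 OE replicate 1 thus lay below the controls. The smallest p were those of VCP, the ATPase that pulls NRF1 out of the endoplasmic reticulum, at 0.34 (adjusted p = 0.113), SYVN1, a ubiquitin ligase there, at 0.33 (adjusted p = 0.118), and DDI2, the protease that activates NRF1, at -0.29 (adjusted p = 0.283). Members whose promoter window held TGACNNNGC had a median log2 fold change of 0.35 (10 genes), and those without it 0.34 (22 tested genes). The medians with and without the other motifs were 0.09 (4 genes) and 0.36 (28 genes) for the interferon element, 0.35 (17 genes) and 0.34 (15 genes) for CCAAT, and 0.12 (2 genes) and 0.36 (30 genes) for the E2F site. The 4 with the interferon element are PSMB8 (0.09), PSMB10 (0.06), PSMA4 (0.09) and PSMB4 (0.38). Members without it could be as low, such as PSMD5 (0.06) and PSMD7 (0.09). A link between element and fold change was not tested.

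Of 11 genes of ubiquitin, its activating enzymes and shuttles, 8 had a positive value, against 49.6% of all tested genes, and none passed. UBB, a polyubiquitin gene, was at 341 ± 40.1 CPM in CNTNAP2-203 OE and 252 ± 22.2 CPM in control (log2 fold change 0.43, edgeR adjusted p = 0.130). RPS27A, which encodes ubiquitin fused to a ribosomal protein, was at 0.35. Of 15 interferon regulators and genes of MHC class I peptide supply, 1 had a positive value, against 49.6% of all tested genes. None passed, and the median was -0.18. The lowest value was that of B2M, at -0.74 (edgeR adjusted p = 0.616). Its libraries were at 1654, 254 and 1321 CPM in CNTNAP2-203 OE, against 1869, 1711 and 1806 CPM in control, so replicate 2 of CNTNAP2-203 OE stood far below the rest. JAK1, the kinase of interferon receptors, was at -0.51 (adjusted p = 0.119), IFNGR1 at -0.38 (adjusted p = 0.126) and ERAP1, a peptide-trimming enzyme, at -0.23 (adjusted p = 0.378). IRF1, which drives immunoproteasome genes, was at 218 ± 14.1 CPM in CNTNAP2-203 OE and 218 ± 10.6 CPM in control.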

How the data were processed

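RNA was measured in 6 libraries, 3 of CNTNAP2-203 OE and 3 of control, grouped by sample title. Per the labels' protocols, the TruSeq v2 kit was used, which does not mark strand. Trim Galore 0.4.4 and the build hg38 are named in the submitters' processing notes, while aligner, counter and gene models were not given there or in the labels. Deposited by the authors were whole-number counts per gene and a table of log2 values, found to be log2(FPKM + 1) by comparing them with the counts. Control replicate 1 is labelled as submitted single-end.

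Counts were analysed with edgeR 4.0.16 (R 4.3.3): filterByExpr (minimum count 10), TMM, and the quasi-likelihood test (robust), in a model of group alone, adjusted by Benjamini-Hochberg over 18786 genes at 0.05. SEs are the absolute log2 fold change over the square root of F. Medians per library use log2(CPM + 0.5). FPKM is 2 to the power of the deposited log2 value, minus 1. DESeq2 1.42.0 and limma 3.58.1 served as alternatives. The procedure was tested on simulated data. No 2 libraries of a group differed by as little as sampling noise. Coordinates are from GENCODE 29, to which all 39 genes matched by identifier; exons of 15 of the 37 tested genes overlap another gene, 12 of them one on the opposite strand.

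The members, lists and motifs were chosen with earlier results of these data known. Values by library are given for PSMB5 to PSMB10, every called member and the 2 members of each subgroup with the smallest p. Other members are given by range or where all members are accounted for. Of other lists, each called gene and the 3 with the smallest p are named. Others, such as NFE2L1, IRF1, USP14 and B2M, are named for their role or value after their values were seen. One gene that this rule names is not reported here.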

Additional observations from a re-analysis of the deposited data

How the results depend on the processing

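Without CNTNAP2-203 OE replicate 3, 35 of 37 members kept a positive log2 fold change. All 37 had one under RLE size factors, upper quartile scaling, no filter, DESeq2, limma-voom and the replicate block, and 36 with limma on the log2 FPKM values and with GC and length trends removed (an alternative chosen after seeing the data), where PSMB10 was at -0.000094 and -0.0335. Calls were not stable. Against 1 member called by edgeR, DESeq2 called 8 (4.4% of genes with an adjusted p). The fit with GC and length trends removed called 4, and the fits without 1 library 0 to 5. PSMD1 alone was called with limma-voom, limma on log2 FPKM, RLE, upper quartile and no filter. The same held for merging some same-strand overlapping genes (also chosen after seeing the data). That merge joined PSMA1, PSMA2, PSMA6, PSMB10 and PSMD9 each with 1 partner. It left out WDR66, on the strand of PSMD9, and PSMB8-AS1, on that of PSMB9. Over all genes, 150 were called higher and 112 lower, against 650 and 475 with DESeq2, 97 and 69 with limma-voom, 99 higher with limma on log2 FPKM, and 325 and 223 with GC and length trends removed; without 1 library they were 8 to 310 higher and 6 to 235 lower. Fits without 1 library gave medians of 0.23 to 0.40 over all members, 0.28 to 0.44 over the base and 0.26 to 0.43 over base and lid, each lowest without CNTNAP2-203 OE replicate 3; -0.13 to 0.22 for PSMA4 and -0.10 to 0.17 for PSMB10. The causes were not tested, beyond the loss of samples itself.

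Same-numbered libraries did not deviate together (correlations of -0.12, 0.04 and -0.04 for numbers 1, 2 and 3). With 3 libraries a group, these values cannot show whether the numbers mark a pairing, and the main model holds group alone. With the replicate block, 0 members and 11 genes higher and 6 lower were called, and the median of members was 0.36. Depth was no limit for the tested members, while counts of 0 to 4 for PSMA8 and PSMB11 allow no comparison.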
